A study of Mus musculus with 8 samples.

Results

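The genes that macrophages use to recognise and bind dying cells were followed in adhesion-related macrophages (ARMs) and stromal vascular fraction macrophages (SMs) of mouse epididymal white adipose tissue (eWAT). The 7 genes were Mertk, Axl, Tyro3, Gas6, Pros1, Mfge8 and Stab1, chosen by symbol as the receptors and bridging molecules of efferocytosis, and all 7 were present among the 17740 genes of the table for high-fat diet (HFD) mice and the 16436 genes of the table for normal diet (ND) mice. RNA-seq was carried out on 8 libraries, 2 for each of the 4 groups HFD ARM, HFD SM, ND ARM and ND SM. All groups came from wild-type male mice with no other genotype or treatment, and the diets were started at 6 weeks of age. The HFD groups had been fed HFD for 8 weeks, and the ND groups had been fed ND. ARMs were macrophages of the floating adipocyte layer after collagenase digestion, released by vortexing with beads until the adipocytes lysed. SMs, named NARM in the sample titles, were those of the pelleted stromal vascular fraction of the same tissue, for which no vortexing is described. This handling and the cell type cannot be told apart. Both ARMs and SMs were sorted by flow cytometry. Each library was made from 6 pooled HFD mice or 10 pooled ND mice, so differences between single animals could not be seen, and nothing states whether the 2 libraries of a group came from separate sorts. The p-values below therefore measure the spread between these libraries, which may be technical.

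Efferocytosis is the removal of apoptotic cells by phagocytes. Dying cells expose phosphatidylserine, and a macrophage either binds this lipid directly or through a soluble bridging molecule. Gas6 and protein S (Pros1) are bridging molecules with a vitamin K-dependent domain that holds phosphatidylserine and with a second end that activates the TAM receptor tyrosine kinases Tyro3, Axl and Mertk. Gas6 can activate all TAM receptors, whereas protein S acts mainly through Tyro3 and Mertk. Mertk is the TAM receptor best known for clearance by resting tissue macrophages, and Axl is better known from activated or inflamed tissue. Mfge8 (lactadherin) bridges phosphatidylserine to αv integrins. Stab1 (stabilin-1) is a large scavenger receptor of tissue macrophages and sinusoidal endothelium that also takes up phosphatidylserine-bearing cells. In adipose tissue, macrophages clear dying adipocytes, which become frequent in obesity.

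The estimated counts summed to between 14508824 and 19040133 per library. Fractional values made up 32.3% to 32.9% of an HFD library but only 8.55% to 9.36% of an ND library. The diets thus had differently made tables, and diet and table cannot be told apart. The macrophage identity of the sorted cells was checked with 10 marker genes, all of which had counts in every library, with a summed level of 14136 to 16513 TPM, the deposited level corrected for gene length and depth. Cd3e, a defining T cell gene, had 1 to 3 counts in each of the 8 libraries, and Ly6g, a defining neutrophil gene, had 0 to 2. Other genes of the same marker lists had more, such as Cd4 with 108 to 235 counts in the HFD libraries and S100a9 with 211 and 169 counts in ND SMs. Markers of adipocytes and other stromal cells, and some of other immune cells, were also present and differed between ARMs and SMs. Their values stand below beside the results.

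The members are protein-coding genes in GENCODE M21, and their positions are given on mm10 (GRCm38), the build that the submitters' processing notes name. Mertk spans chr2:128698956-128802894 on the plus strand, Axl chr7:25757273-25788705 on the minus strand, Tyro3 chr2:119797733-119818104 on the plus strand, Gas6 chr8:13465374-13494490 on the minus strand, Pros1 chr16:62854307-62929346 on the plus strand, Mfge8 chr7:79133768-79149060 on the minus strand and Stab1 chr14:31139013-31168641 on the minus strand. The promoter windows of 4 members are shown because these genes moved in pairs in HFD mice, Axl and Mfge8 upwards and Gas6 and Pros1 downwards. Each window runs 5′ to 3′ on the strand of the gene, from 250 bases before to 50 bases after the RefSeq start (GRCm38.p6). The windows are chr7:25788684-25788983 for Axl, chr7:79149011-79149310 for Mfge8, chr8:13494486-13494785 for Gas6 and chr16:62854057-62854356 for Pros1. Capitals mark GC boxes (GGGCGG on either strand) and the PU.1 motif (GAGGAAG on either strand), which is the factor motif of the macrophage lineage.
Axl: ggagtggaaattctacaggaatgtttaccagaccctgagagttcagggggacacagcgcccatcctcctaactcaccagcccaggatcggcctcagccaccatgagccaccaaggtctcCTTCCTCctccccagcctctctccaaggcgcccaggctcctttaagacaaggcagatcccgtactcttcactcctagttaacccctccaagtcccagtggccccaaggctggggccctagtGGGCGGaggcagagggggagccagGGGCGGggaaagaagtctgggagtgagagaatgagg
Mfge8: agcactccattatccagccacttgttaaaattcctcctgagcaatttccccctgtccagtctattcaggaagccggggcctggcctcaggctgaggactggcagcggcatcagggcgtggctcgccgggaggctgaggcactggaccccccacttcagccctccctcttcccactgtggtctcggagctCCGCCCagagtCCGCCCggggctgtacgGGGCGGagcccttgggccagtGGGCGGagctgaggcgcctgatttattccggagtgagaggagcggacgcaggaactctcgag
Gas6: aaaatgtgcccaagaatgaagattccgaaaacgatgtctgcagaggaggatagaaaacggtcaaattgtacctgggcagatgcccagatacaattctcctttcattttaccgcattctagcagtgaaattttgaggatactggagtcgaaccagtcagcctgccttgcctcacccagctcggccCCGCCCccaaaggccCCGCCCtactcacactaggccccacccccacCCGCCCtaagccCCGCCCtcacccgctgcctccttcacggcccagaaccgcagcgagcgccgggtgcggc
Pros1: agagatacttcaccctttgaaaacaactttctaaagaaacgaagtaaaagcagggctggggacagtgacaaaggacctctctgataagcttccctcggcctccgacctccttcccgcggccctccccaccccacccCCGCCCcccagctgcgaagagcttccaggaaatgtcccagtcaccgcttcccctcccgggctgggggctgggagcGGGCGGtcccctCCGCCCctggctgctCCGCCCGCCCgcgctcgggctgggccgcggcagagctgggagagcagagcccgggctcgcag

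GC boxes were the shared feature of these windows, with 2 matches in Axl, 4 in Mfge8, 4 in Gas6 and 5 in Pros1, some of them overlapping in Pros1. Mertk also held 4 and Tyro3 held 6, while Stab1 held none. The motif is common, with at least 1 match in 35.7% of the 32851 promoter windows of the RefSeq table. The PU.1 motif was found once among the 7 members, 131 bases before the start of Axl, and in 13.6% of all windows. The AP-1 motif TGANTCA (7.81% of all windows) and the TATA box TATAAA (13.6%) were not found in any of the 7 windows. The GC content of the 7 windows was 57.3% to 73.3%, against a median of 52.7% over all windows. The pair that rose and the pair that fell were not separated by the motifs searched, since the single PU.1 match in Axl was not shared by Mfge8.

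Among the members, the TAM ligand Gas6 was the most abundant transcript in every group, and the TAM receptor Tyro3 was close to absent. On the TPM scale, the order in HFD SMs, ND SMs and ND ARMs was Gas6, Stab1, Pros1, Mertk, Axl, Mfge8 and Tyro3, and no neighbours in this order overlapped between libraries. In HFD ARMs the middle of the order closed up. Axl (164 ± 7.49 TPM, SD, n = 2), Pros1 (162 ± 1.17 TPM, SD, n = 2) and Mertk (161 ± 16.9 TPM, SD, n = 2) overlapped there, so their order cannot be given. Gas6 ranked between 148 and 232 among all genes of its table by mean TPM, Stab1 between 289 and 302, and Mfge8 between 2650 and 5265. The same order was found with FPKM, the deposited level per kilobase and sequenced fragments. The plot of TPM in each library shows these levels for all 7 members.

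**Figure D1:**
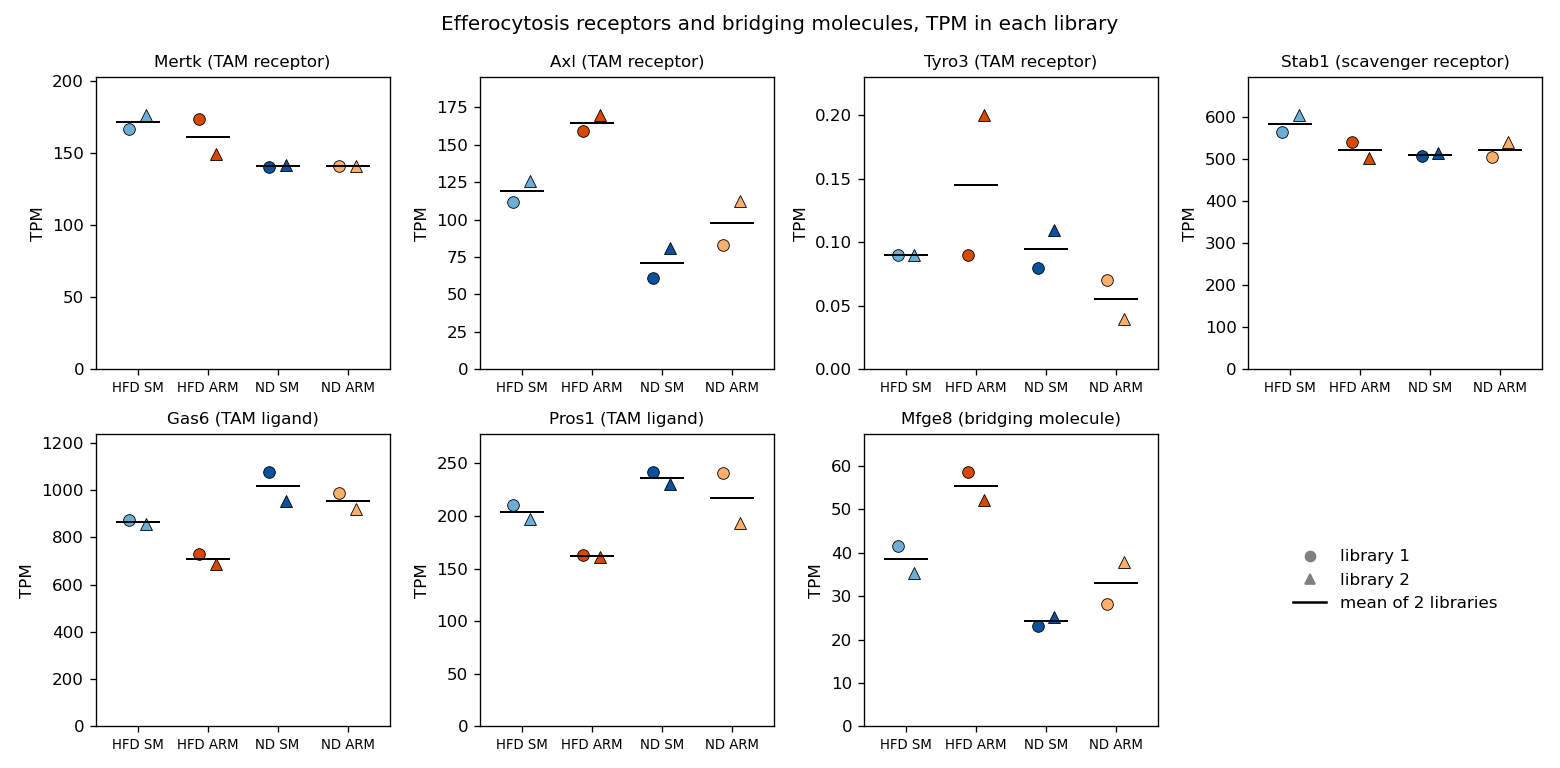
TPM of each member (vertical axes, each starting at 0 with its own scale) in the 2 libraries of HFD SM, HFD ARM, ND SM and ND ARM (horizontal axes), with a circle for library 1, a triangle for library 2 and a line at the group mean. Axl and Mfge8 stood higher in ARMs than in SMs of both diets, Gas6 and Pros1 stood lower in HFD ARMs, and Tyro3 stayed at or below 0.20 TPM.

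The counts of ARMs and SMs were compared separately for HFD and ND mice, with the edgeR quasi-likelihood test and Benjamini-Hochberg adjustment over all genes tested. A gene passed at an adjusted p under 0.05, and a fold change over 1.5 was recorded besides. In HFD mice, Axl and Mfge8 rose in ARMs, Gas6 and Pros1 fell, and Mertk and Stab1 did not pass. In ND mice no member passed in this fit. Axl and Mfge8 passed there with the replicate number as a block, although the labels state no pairing. Tyro3 was below the filter on low counts in both diets. All changes were small, the largest being 1.41-fold for Mfge8.

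Of the TAM receptors, Mertk did not pass in either diet. It was at 167 and 176 TPM in the HFD SM libraries and at 173 and 149 TPM in the HFD ARM libraries. In ND mice it was at 141 and 142 TPM in SMs and at 141 and 141 TPM in ARMs. The libraries of ARMs and SMs overlapped in both diets. The log2 fold change was -0.07 in HFD mice (95% interval -0.24 to 0.10, adjusted p = 0.661 by edgeR) and -0.02 in ND mice (-0.22 to 0.18, adjusted p = 0.955 by edgeR), so a difference of 1.5-fold lay outside both intervals.

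Axl was higher in both ARM libraries than in both SM libraries of each diet. It was at 112 and 126 TPM in HFD SMs and at 159 and 170 TPM in HFD ARMs. This change passed the test, with a log2 fold change of 0.46 (SE 0.072, 95% interval 0.30 to 0.62, 1.38-fold, edgeR adjusted p = 0.00312). In ND mice Axl was at 60.8 and 81.1 TPM in SMs and at 83.3 and 113 TPM in ARMs. The highest SM library and the lowest ARM library of the ND mice nearly met, and the log2 fold change of 0.44 had a wider interval (0.14 to 0.74) and did not pass (edgeR adjusted p = 0.106, unadjusted p = 0.00748).

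Tyro3 was hardly detected. It had 3 and 3 counts in HFD SMs, 3 and 7 in HFD ARMs, 2 and 3 in ND SMs, and 2 and 1 in ND ARMs. These counts are at or near the floor of 3 counts, and no fold change is given for them. The TAM receptor transcripts of these cells were therefore Mertk and Axl at the depth sequenced.

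Of the TAM ligands, Gas6 was at 872 and 858 TPM in HFD SMs and at 729 and 686 TPM in HFD ARMs. Both ARM libraries were lower than both SM libraries. The log2 fold change was -0.30 (SE 0.062, 95% interval -0.44 to -0.16, edgeR adjusted p = 0.0138), a level in ARMs of 0.813 times that in SMs. In ND mice Gas6 was at 1075 and 956 TPM in SMs and at 988 and 919 TPM in ARMs. Those libraries overlapped, with a log2 fold change of -0.12 (95% interval -0.34 to 0.10, edgeR adjusted p = 0.692).

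Pros1, the other TAM ligand, followed the same pattern. It was at 211 and 198 TPM in HFD SMs and at 163 and 161 TPM in HFD ARMs. The HFD libraries did not overlap, and the log2 fold change was -0.34 (SE 0.063, 95% interval -0.48 to -0.20, edgeR adjusted p = 0.0073), or 0.788 times the SM level. In ND mice it was at 242 and 230 TPM in SMs and at 241 and 194 TPM in ARMs. The first ND ARM library equalled the SMs and the second was lower, with a log2 fold change of -0.14 (95% interval -0.38 to 0.09, edgeR adjusted p = 0.637).

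Mfge8, the bridge to αv integrins, was the lowest of the readily detected members. It was at 41.7 and 35.3 TPM in HFD SMs and at 58.5 and 52.2 TPM in HFD ARMs, from 651 to 1057 counts per library. The log2 fold change was 0.50 (SE 0.097, 95% interval 0.28 to 0.71, 1.41-fold, edgeR adjusted p = 0.0101). In ND mice it was at 23.2 and 25.3 TPM in SMs and at 28.2 and 37.8 TPM in ARMs, from 332 to 506 counts. Both ND ARM libraries were above both SM libraries, but the log2 fold change of 0.41 (95% interval 0.11 to 0.71) did not pass (edgeR adjusted p = 0.138).

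The scavenger receptor Stab1 was at 565 and 605 TPM in HFD SMs and at 541 and 503 TPM in HFD ARMs. The HFD ARM libraries were both lower. The log2 fold change, -0.17 (95% interval -0.32 to -0.03), missed the threshold (edgeR adjusted p = 0.134, unadjusted p = 0.0229). In ND mice it was at 508 and 515 TPM in SMs and at 506 and 541 TPM in ARMs, and the libraries overlapped. The ND log2 fold change was 0.01 (95% interval -0.21 to 0.22, edgeR adjusted p = 0.988).

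In HFD mice 4 of the 6 members tested passed, against 9.55% of the 13337 genes tested. The members were chosen with earlier results of these data known. The shares over all genes are therefore a description and not a test of the set. Of these, 2 were higher, against 6.53% of all genes tested, and 2 were lower, against 3.02%. None passed with a fold change over 1.5, which 4.46% of all genes did as higher, 0.292% as lower and 4.75% in either direction. In ND mice 0 of 6 passed by edgeR and 0 by DESeq2, against 4.73% of 12441 genes tested at any fold and 3.68% past 1.5-fold. At an unadjusted p under 0.05, 2 of 6 (Axl and Mfge8) were below the threshold in ND mice, against 14.9% of all genes. By TPM, the ARM and SM libraries did not overlap for 5 of the 7 members in HFD mice. Of all genes tested, 26.3% were without overlap and higher in ARMs and 26.4% without overlap and lower. In ND mice the libraries did not overlap for Axl, Mfge8 and, at 1 to 3 counts, Tyro3, against 21.2% of all genes as higher and 22.8% as lower. These shares over all genes were taken from counts scaled to library size and cover tested genes only. The members' overlap was taken from TPM and includes the untested Tyro3, so the measures differ. The median log2 fold change over all genes tested was -0.01 in HFD mice and -0.02 in ND mice. An exact permutation test of 2 libraries against 2 cannot go below p = 0.333, so the calls rest on the spread estimated over all genes. They also rest on both HFD ARM libraries. Without the first, Axl still passed (edgeR adjusted p = 0.044) and Mfge8, Gas6 and Pros1 did not (0.0744 to 0.164). Without the second, none of the 4 passed (0.0666 to 0.213). The direction of the 4 was kept in both cases. Mfge8 went past 1.5-fold without the first HFD SM library (log2 fold change 0.64). In ND mice Axl passed without the first ARM library (0.64, edgeR adjusted p = 0.0253) or the second SM library (0.65, 0.00664), and Mfge8 without the first ARM library (0.60, 0.0267). The 4 calls also failed with no filter on low counts (adjusted p 0.0677 to 0.129) while their log2 fold changes stayed between -0.34 and 0.50. The plot of log2 fold changes gives the intervals.

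**Figure D2:**
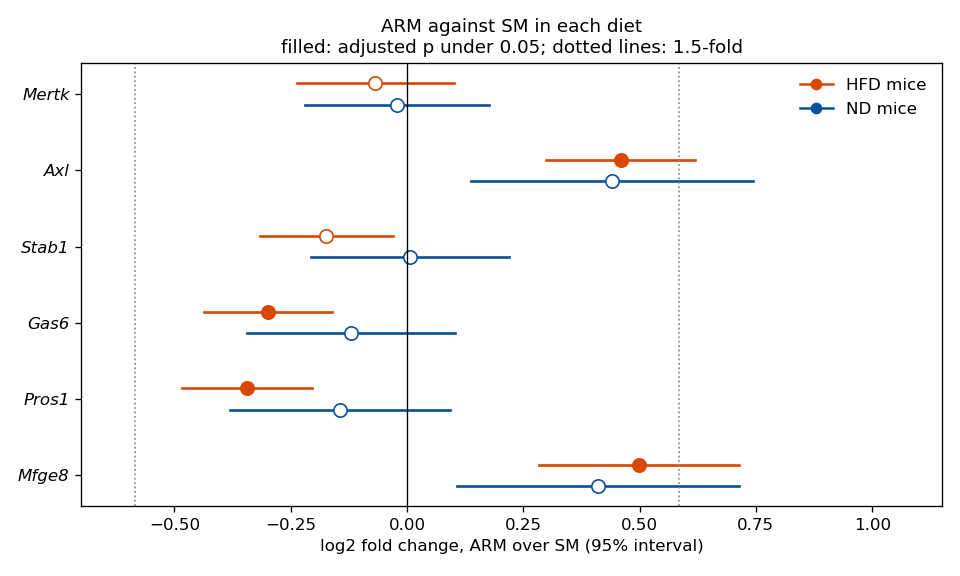
Log2 fold change of ARM over SM (horizontal axis) for the 6 members tested (vertical axis) in HFD mice (orange) and ND mice (blue), with the 95% interval as a line, filled points for an adjusted p under 0.05 and dotted lines at a 1.5-fold change. Points of Axl and Mfge8 lie right of 0 in both diets, and the HFD points of Gas6 (-0.30) and Pros1 (-0.34) lie left of 0 and are filled.

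Because Axl rose while both TAM ligands fell and Mertk did not pass in HFD mice, TPM ratios of these genes were taken within each library. The ratios were thus chosen from these same values. Their separation in HFD mice restates the changes above and is no further evidence. The ratio of Axl to Mertk was 0.67 and 0.715 in HFD SMs and 0.918 and 1.14 in HFD ARMs. It was 0.432 and 0.573 in ND SMs and 0.59 and 0.8 in ND ARMs. The ARM libraries were above the SM libraries in each diet, and the second HFD ARM library alone had more Axl than Mertk. The ligands Gas6 and Pros1 together exceeded the TAM receptors in every library. The ratio of summed ligands to summed receptors was 3.88 and 3.49 in HFD SMs and 2.68 and 2.65 in HFD ARMs, without overlap. In ND mice it was 6.53 and 5.32 in SMs and 5.47 and 4.39 in ARMs, with overlap. The ratio of Gas6 to Pros1 stayed within 4.10 and 4.75 in all 8 libraries and did not separate the groups. The plot of ratios within libraries shows this ratio beside the 2 others.

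**Figure D3:**
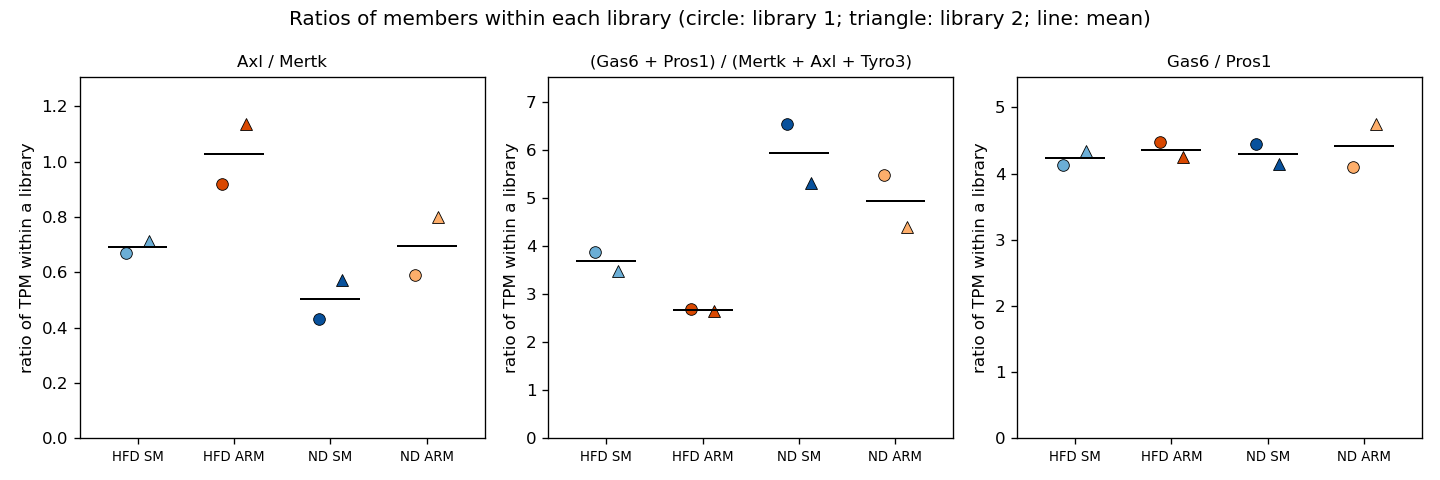
Ratios of TPM within each library (vertical axes, starting at 0) for Axl over Mertk, for Gas6 and Pros1 together over the TAM receptors, and for Gas6 over Pros1, in the 4 groups (horizontal axes), with a circle for library 1, a triangle for library 2 and a line at the mean. The summed ligands were 3.49 to 3.88 times the receptors in HFD SMs and 2.65 to 2.68 times in HFD ARMs. In ND mice they were 5.32 to 6.53 times in SMs and 4.39 to 5.47 times in ARMs, with overlap. Gas6 over Pros1 stayed between 4.10 and 4.75.

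Markers of other cell types moved with the same comparison. Of 10 adipocyte markers, all 10 were higher in HFD ARMs and 7 in ND ARMs, and their summed level was 418 to 498 TPM in HFD SMs, 1134 to 1247 in HFD ARMs, 334 to 433 in ND SMs and 552 to 813 in ND ARMs. Fabp4 was the largest part of that sum, at 212 to 296 TPM in HFD SMs and 769 to 879 TPM in HFD ARMs. Adipoq was at 4.08 to 4.33 TPM and 27.8 to 33.4 TPM there. In ND mice Fabp4 was at 162 to 245 TPM in SMs and 287 to 414 TPM in ARMs. The study lists Fabp4 among the fatty acid transport genes of ARMs themselves, so the summed level need not be adipocyte RNA alone. Of 10 fibroblast and progenitor markers, 6 were higher in HFD ARMs and 7 in ND ARMs, with summed levels of 249 to 273 TPM, 368 to 450 TPM, 164 to 228 TPM and 472 to 689 TPM in the same order of groups. Of 10 vascular endothelial markers, 9 were higher in HFD ARMs and 1 in ND ARMs, with 30.4 to 43.1 TPM, 95.6 to 100 TPM, 20.6 to 25.0 TPM and 26.3 to 51.7 TPM. The smaller stromal lists were mixed. Of 7 pericyte and smooth muscle markers tested, 3 were higher in HFD ARMs and 2 in ND ARMs. Of 8 mesothelial markers, 0 were higher in HFD ARMs and 6 in ND ARMs. Of 8 lymphatic endothelial markers, 3 were higher in HFD ARMs and 4 in ND ARMs. Lyve1, which is also on the lymphatic list, was lower in HFD ARMs (log2 fold change -0.58). The summed macrophage markers were 15810 and 15926 TPM in HFD SMs against 15060 and 14136 TPM in HFD ARMs, and 2 of 10 (Lyve1 and Cd163) were lower there. Dendritic cell markers summed to 219 and 229 TPM in HFD SMs against 162 and 164 TPM in HFD ARMs, where 1 of 6 was lower (Cd209a, log2 fold change -0.48), and to 185 to 227 TPM in ND mice, where none of the 6 passed by edgeR. Neutrophil and mast cell markers summed to 113 and 86.0 TPM in ND SMs against 20.1 and 63.5 TPM in ND ARMs, where 1 of 5 tested was lower (S100a9, -1.43). In HFD mice they summed to 15.6 and 15.5 TPM in SMs against 23.3 and 27.9 TPM in ARMs, where 1 of 5 was higher (Kit, 1.38). T and NK cell markers summed to 7.96 to 11.4 TPM, and 1 of 3 tested was higher in HFD ARMs (Cd4, 0.88). B cell markers summed to 7.96 to 12.3 TPM, and none of 3 tested passed in either diet by edgeR.

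The second ND ARM library had more fibroblast marker RNA (689 against 472 TPM) and more adipocyte marker RNA (813 against 552 TPM) than the first. It also had more Axl (113 against 83.3 TPM) and Mfge8 (37.8 against 28.2 TPM). It had less Pros1 (194 against 241 TPM) and less Gas6 (919 against 988 TPM). In HFD mice the ARM library with more fibroblast and adipocyte marker RNA was likewise the second, and it had more Axl (170 against 159 TPM) but less Mfge8 (52.2 against 58.5 TPM). That library also had less Gas6 (686 against 729 TPM) and nearly the same Pros1 (161 against 163 TPM). Axl, Gas6, Pros1 and Mfge8 are also expressed by stromal cells. The part of the other cell types in the members' differences was not tested. In bulk RNA a smaller number of cells of a type and less RNA per cell cannot be told apart.

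**Figure D4:**
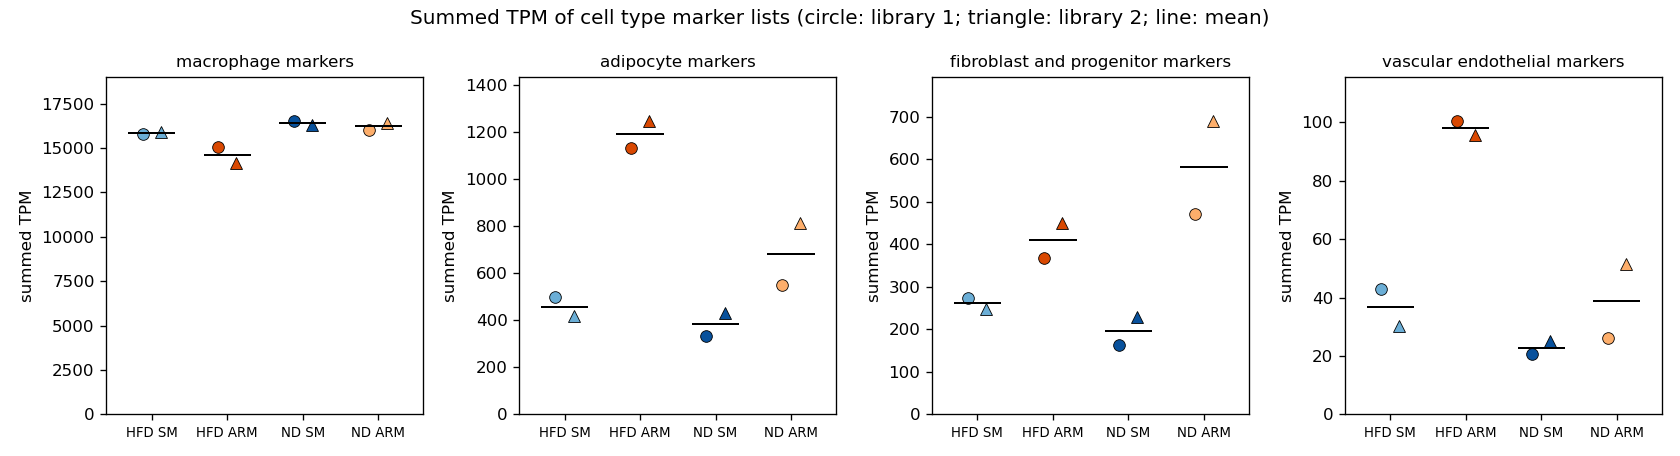
Summed TPM of 4 marker lists (vertical axes, starting at 0) in the libraries of the 4 groups (horizontal axes), with a circle for library 1, a triangle for library 2 and a line at the mean. Macrophage markers sum to 14136 to 16513 TPM everywhere, and adipocyte markers reach 1247 TPM in HFD ARMs against 498 TPM at most in HFD SMs. Of the 1247 TPM, Fabp4 made up 879 TPM.

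The diets were set side by side as values only. In both cell types the levels of Axl and Mfge8 were higher in HFD libraries than in ND libraries, and those of Gas6 and Pros1 were lower. Mean Axl was 1.68 times as high in HFD as in ND in ARMs (164 against 98 TPM) and in SMs (119 against 71 TPM). Mean Mfge8 was 1.68 times as high in ARMs (55.4 against 33.0 TPM) and 1.59 times in SMs (38.5 against 24.2 TPM). Mean Gas6 was 0.742 times the ND level in ARMs (708 against 954 TPM) and 0.851 times in SMs (865 against 1016 TPM), and mean Pros1 was 0.746 and 0.865 times. Mertk was 1.14 times the ND level in ARMs and 1.22 times in SMs. Stab1 was 0.997 times in ARMs, where the libraries overlapped, and 1.14 times in SMs. The other libraries of HFD and ND did not overlap for these 6 members. Such separation was common, since in ARMs 30.3% of 13358 genes were without overlap and higher in HFD and 41.2% lower, and in SMs 32% were higher and 39.8% lower. The direction was the same with FPKM and with TMM-normalised CPM (counts scaled to library size), except for Stab1 in ARMs, whose log2 ratio was 0.00 by TPM, -0.03 by FPKM and 0.02 by CPM. The gene length implied by the deposited values, HFD over ND, was 1.03 to 1.09 for the 6 members, against a median of 1.06 over 10073 genes.

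The difference between diets in the change from SM to ARM was tested in a joint fit of all 8 libraries. No member passed, with edgeR adjusted p of 0.763 for Stab1 and higher for the other 5, against 0.165% of 13358 genes tested. None of the 6 was below an unadjusted p of 0.05 either, as 7.61% of all genes were. The difference in log2 fold change, HFD less ND, was 0.01 for Axl with an interval of -0.41 to 0.42. For Pros1 it was -0.22 (-0.52 to 0.08), for Gas6 -0.19 (-0.46 to 0.07) and for Stab1 -0.20 (-0.43 to 0.04). It was -0.06 for Mertk (-0.32 to 0.19) and 0.08 for Mfge8 (-0.33 to 0.48). The ARM against SM changes of the members in HFD mice were thus not shown to differ from those in ND mice, although 4 passed in HFD mice and none in ND mice.

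Other genes of efferocytosis were read from 7 lists of 89 genes in all. The lists too were chosen with earlier results known, so the shares beside them are descriptions only. In HFD mice 82 of them were tested, of which 15 were higher in ARMs and 3 were lower, against 6.53% and 3.02% of all genes tested. Of the 15, 7 were past 1.5-fold, against 4.46% of all genes tested for higher genes past that fold. In ND mice 82 were tested, of which 6 were higher and 0 lower, with 5 past 1.5-fold, against 3.55% of all genes. At any fold the higher genes were 4.28% of all genes in ND mice. The median log2 fold change over the lists was 0.04 for HFD and 0.03 for ND mice, beside -0.01 and -0.02 over all genes. The part of adipocytes and other stromal cells in the changes of the list genes was not tested. The counts past 1.5-fold depended on single libraries. Without the second HFD ARM library 1 gene was higher. In ND mice 8 were higher without the first ARM library, 3 without the first SM library, and 2 without the second ARM library, where 1 was lower.

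Of the other receptors for apoptotic cells, 4 of 19 tested were higher in HFD ARMs and 2 of 20 in ND ARMs. The integrin subunits that pair into the αvβ5 receptor of Mfge8 were among them. Itgb5 was at 54.2 and 57.9 TPM in HFD SMs and 77.5 and 82.9 TPM in HFD ARMs (log2 fold change 0.51, edgeR adjusted p = 0.00122), and it passed in ND mice too (0.61, adjusted p = 0.0174 by edgeR). Itgav rose in HFD ARMs (0.38, adjusted p = 0.0247 by edgeR) and had a value of 0.42 in ND mice that did not pass (adjusted p = 0.153 by edgeR). Itgb3, the other partner of Itgav for Mfge8, stayed under 1 TPM in every library. The scavenger receptor Scarb1 rose in HFD ARMs (0.69, edgeR adjusted p = 0.000275). The lectin-like receptor Olr1 rose in both diets, by 0.95 in HFD and 0.78 in ND mice on the log2 scale.

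The phosphatidylserine receptor Timd4 of resident macrophages was at 162 and 155 TPM in HFD SMs and 145 and 114 TPM in HFD ARMs, and its log2 fold change, -0.33, missed the threshold (edgeR adjusted p = 0.0605). Cd36, a partner of integrins in the uptake of dying cells, was among the most abundant receptors, at 1518 to 1742 TPM in HFD SMs and 1531 to 1575 TPM in HFD ARMs, and did not pass in either diet.

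Among the other bridging molecules and opsonins, Thbs1, Ptx3 and Lgals3 rose in the ARMs of both diets. Thrombospondin-1 (Thbs1), which links dying cells to Cd36 and αv integrin, changed by 0.97 in HFD and 0.88 in ND mice on the log2 scale. Ptx3, a pentraxin that binds late apoptotic cells, changed by 0.65 in HFD and 2.25 in ND mice. Galectin-3 (Lgals3), reported as a Mertk ligand, was at 778 and 829 TPM in HFD SMs and 1107 and 1289 TPM in HFD ARMs (log2 fold change 0.57, edgeR adjusted p = 0.00134), and changed by 0.37 in ND mice (edgeR adjusted p = 0.0324). The complement gene C4b fell in HFD ARMs (-0.50, edgeR adjusted p = 0.00144). The C1q genes C1qa, C1qb and C1qc were at 4895 to 6392 TPM across the 8 libraries and passed in neither diet.

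Other lists hold genes that act downstream of the receptors. Of the engulfment genes, 2 of 16 tested were higher in HFD ARMs, the small GTPase Rhog (0.22 on the log2 scale) and the kinase Src (0.74), and 0 of 15 in ND ARMs by edgeR. None of the 12 phagosome processing genes passed in either diet by edgeR, with medians of -0.03 and -0.04. Of 6 genes for sterol- and fatty acid-sensing nuclear receptors and their target, Nr1h3 (LXRα, 0.54) and Pparg (0.67) rose in HFD ARMs, and none passed in ND mice. Both are nuclear receptors activated by lipid ligands. LXRα is known to raise Mertk transcription. Mertk itself was at -0.07 in HFD mice, and a link between these genes was not tested.

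Of the genes for find-me and do-not-eat-me signals, 4 of 9 were higher in HFD ARMs: the chemokine receptor Cx3cr1 (0.80 on the log2 scale), the ATP receptor P2ry2 (0.52), the lysophospholipid receptor Gpr132 (0.50) and the CD47 receptor Sirpa (0.21). The sphingosine-1-phosphate receptor S1pr1 fell (-0.25). In ND mice Cx3cr1 rose (0.59). Of the 11 cofactors, sheddases and feedback genes of the TAM system, only the cytokine suppressor Socs3 passed in HFD mice, at 646 and 604 TPM in SMs and 454 and 494 TPM in ARMs (log2 fold change -0.41, edgeR adjusted p = 0.00432). The enzymes for the vitamin K-dependent modification of Gas6 and Pros1 did not pass in HFD mice, with log2 fold changes of 0.04 for Ggcx, -0.09 for Vkorc1 and 0.15 for Vkorc1l1. The proteases that shed Axl and Mertk, Adam10 (-0.10) and Adam17 (0.13), did not pass either. The plot of the pathway lists shows every gene tested.

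**Figure D5:**
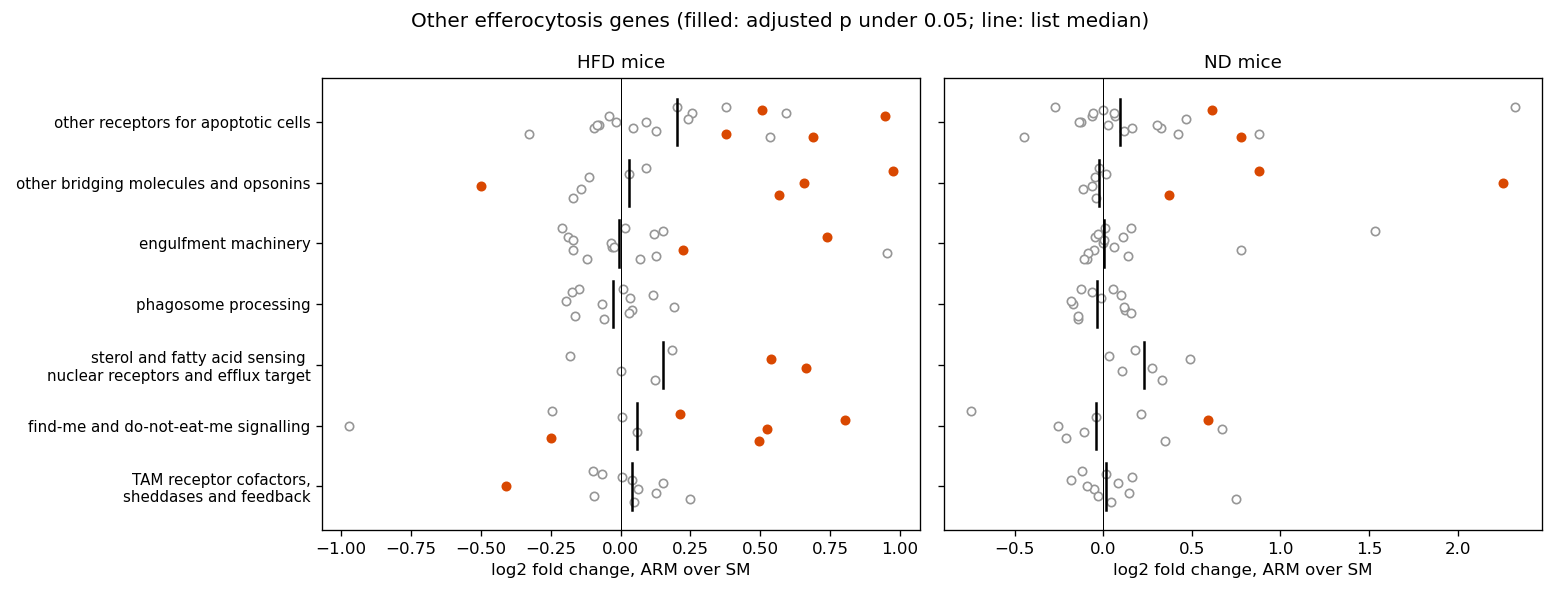
Log2 fold change of ARM over SM (horizontal axes) for each tested gene of the 7 efferocytosis lists (vertical axis), with HFD mice on the left and ND mice on the right, orange filled points for an adjusted p under 0.05 and a black line at the list median. Filled points right of 0 are 15 in HFD mice and 6 in ND mice, and the list of phagosome processing genes has none.

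The genes whose pattern was most like that of each member were taken over the 8 libraries, from log2 CPM centred within each diet, among 8314 genes with a mean of at least 10 CPM. These correlations are descriptions, since the 8 points share 2 tables, depth and the marker differences given above. Axl lay closest to the integrin subunit Itgav (Pearson r = 0.993), the matrix metalloproteinase Mmp19 (0.993) and Ppfibp1 (0.987). Mfge8 lay close to Trp53 (0.988) and Mylk (0.987). Gas6 lay closest to Sertad1 (0.990), Lta4h (0.987) and Cxcr3 (0.985), and Pros1 to Ugt1a7c (0.998), Eps15 (0.988) and Ncoa4 (0.986). Ugt1a7c shares exons with the other genes of its cluster, so its counts are uncertain. Mertk lay closest to the adhesion receptor Adgrg6 (0.967), Wdr13 (0.965) and Iqce (0.947), and Stab1 to the adhesion receptor Adgrg1 (0.978), Poldip3 (0.974) and Castor2 (0.972). Among the members themselves, r was 0.92 between Gas6 and Pros1, 0.85 between Axl and Mfge8, 0.71 between Mertk and Stab1, -0.91 between Axl and Gas6 and -0.92 between Axl and Pros1.

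Some members share bases with a neighbour. The 3′ end of Gas6 overlaps Tmem255b on the opposite strand, that of Stab1 overlaps Nt5dc2, and an antisense gene, Gm14011, lies within Mertk. Whether the counting used strand is not given in the sources used here. Tmem255b had 13 to 25 counts per HFD library and Nt5dc2 564 to 628, against 15374 to 20100 for Gas6 and 35045 to 42730 for Stab1. The estimated counts of Axl in the HFD ARM libraries and of Stab1 in the HFD libraries were not whole numbers, and how reads were assigned to them is not given in the sources used here.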

How the data were processed

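RNA-seq was analysed from 8 libraries of ARMs and SMs, 2 for each group. The authors deposited one table for each diet with expected counts, FPKM and TPM for every gene and library. The submitters' processing notes name mm10, and the aligner, the counting program and the use of strand are not given in the sources used here. Columns holding the authors' mean per group were not used. Groups came from the sample titles.

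Expected counts were rounded, and a model was fitted per diet with edgeR 4.0.16 (R 4.3.3) after filterByExpr and TMM normalization. The quasi-likelihood test was adjusted by Benjamini-Hochberg over all genes tested. A second threshold of 1.5-fold follows the study's legends. No molecular identifiers are stated, and the floor of 3 counts therefore covers counting error only. TPM as deposited gave the levels. HFD and ND were not tested against each other, since each had its own table.

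Alternatives were DESeq2 1.42.0, RLE factors, library totals, no filter, counts rounded down (added after seeing the data), a log2 fold change over 0.6 at an unadjusted p under 0.05 as in the study's methods, one fit of 8 libraries, the replicate number as a block, each library left out, and limma 3.58.1 on log2(FPKM + 1), with a minimum FPKM of 1 in 2 libraries or no filter, or with 0.1 added in place of 1. Titles share replicate numbers but state no pairing. The script was tested on simulated data with the same spread set for all genes. Of simulated 1.4-fold changes, 42% passed with the HFD libraries and 48% with the ND libraries. Of simulated 2-fold changes, 90% and 92% passed. The members and lists were chosen with earlier results of these data known. Named genes are all members, the pathway genes that passed in either diet, up to 5 others per list with a role near a member, and the 3 genes most like each member. One of the latter is not reported here. Marker genes are given as lists. Promoter windows of 300 bases came from RefSeq for all 7 members. Plots used matplotlib 3.10.9 under Python 3.11.15.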

Additional observations from a re-analysis of the deposited data

How the results depend on the processing

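The 4 members that passed in HFD mice also passed with DESeq2, RLE factors, library totals, counts rounded down and the replicate block. Of them, 2 passed with limma on log2(FPKM + 1), 1 in one fit of all 8 libraries, and 0 with no filter on low counts, with limma on log2(FPKM + 0.1), with limma and no filter, and with a log2 fold change over 0.6. Their directions were kept in each of these. In ND mice the count of members was 1 with no filter (Axl). Among pathway genes higher past 1.5-fold, 7 in HFD mice became 2 with no filter, 4 with limma on log2(FPKM + 1), 3 on log2(FPKM + 0.1) and 0 with limma and no filter, and 5 in ND mice became 3 with DESeq2, 2, 0 and 0 with the same limma settings in turn, and 10 at the threshold over 0.6. At that threshold, which took an unadjusted p, 1 was lower in each diet. With no filter 1 was lower in ND mice.

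Over all genes, the 595 higher and 39 lower in HFD mice became 358 and 23 with DESeq2, 167 and 14 with no filter, 290 and 9 with limma on log2(FPKM + 1), 305 and 21 on log2(FPKM + 0.1), 34 and 1 with limma and no filter, and 922 and 95 at the threshold over 0.6. The 442 and 16 in ND mice became 258 and 8 with DESeq2. With no filter 40 were lower. Limma on log2(FPKM + 1) called 204 higher, limma on log2(FPKM + 0.1) 52 and 3, limma with no filter 0 and 0, and the threshold over 0.6 794 and 94.

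With the replicate block, ND mice had 2 members passing (Axl and Mfge8), 10 pathway genes higher and 1 lower past 1.5-fold, and 719 and 67 genes in all, while in HFD mice 4 members passed and 626 and 47 genes were called. Deviations of same-numbered libraries correlated at r = 0.07 in HFD mice (8379 genes) and 0.37 in ND mice (8283 genes). The labels do not pair them, so whether same-numbered libraries were paired is not known.

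With each library left out, where the lone library of a group is assumed to vary like the others, members passing ranged from 0 to 4 in HFD mice and 0 to 2 in ND mice, and members past 1.5-fold from 0 to 1 and 0 to 2. Pathway genes higher ranged from 1 to 8 and 2 to 8, and lower from 0 to 0 and 0 to 1. All genes higher ranged from 198 to 587 and 171 to 617, and lower from 16 to 58 and 15 to 44. In ND mice Axl had a log2 fold change of 0.64 and passed without the first ARM library, and 0.65 and passed without the second SM library, against 0.20 without the second ARM library and 0.25 without the first SM library, and Mfge8 ranged from 0.19 to 0.60.

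Signs changed only for values that did not pass. In HFD mice Mertk ranged from -0.18 to 0.042. In ND mice Stab1 was -0.0038 with no filter and ranged from -0.045 to 0.052 with a library left out, and Pros1 from -0.31 to 0.0020. The differences between diets ranged from -0.18 to 0.047 for Mertk, from -0.19 to 0.25 for Axl and from -0.084 to 0.31 for Mfge8. No member passed the test of the difference between diets under any of these settings. With 2 libraries of pooled mice per group, an absence of calls does not show that levels were equal. The cause of these changes was not tested.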
